A study of Mus musculus with 16 samples.

Results

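The mRNA levels of 8 genes of cholesterol synthesis were read in isolated glomeruli of diabetic mice, with and without blockade of the renin-angiotensin-aldosterone system (RAAS). The genes were chosen by name, with earlier results of these data known: 6 enzymes of the pathway (Idi1, Fdft1, Sqle, Lss, Cyp51 and Sc4mol) and 2 regulators (Srebf2 and Insig1). All 8 were found among the 25791 symbols of the table and all 8 passed the filter on low values, as did 13286 symbols in all. The mice carried the genotype labelled eNOS-/-//db/db, which joins loss of endothelial nitric oxide synthase to the db mutation of the leptin receptor and serves as a model of diabetic kidney disease. The untreated group (9 libraries) received no drug. The RAAS-blocked group (7 libraries) received 2 drugs against the angiotensin branch of this system: lisinopril (20 mg/day), which inhibits the converting enzyme, and losartan (30 mg/day), which blocks the receptor for angiotensin II. They were given in the drinking water, from 10 to 12 weeks until 26 weeks of age. All mice ate a standard diet, and mice without diabetes were not analysed here. Glomeruli came from 1 kidney per mouse after iron perfusion and magnetic capture. The labels do not state for each library that it is a mouse of its own, so the p-values speak of library-to-library spread, which may be technical. The library identifiers form 1 unbroken run per group, so treatment and any handling by run cannot be told apart.

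Cells build cholesterol from acetyl-CoA through mevalonate and isoprenoids to squalene, close squalene into lanosterol, and then trim and reduce lanosterol to cholesterol. The genes of this route are controlled together by SREBP2, the product of Srebf2, a transcription factor made as a precursor in the membrane of the endoplasmic reticulum. When sterols are low the precursor travels to the Golgi, is cut, and its freed amino-terminal part enters the nucleus and binds sterol regulatory elements in promoters, usually beside sites for NF-Y and Sp1. INSIG1 holds the precursor in the endoplasmic reticulum when sterols are plentiful, and Insig1 is itself a target of SREBP. In the kidney, accumulation of cholesterol and other lipids in podocytes and mesangial cells has been described in diabetic disease. An mRNA level does not show how much SREBP2 is cut or how active an enzyme is.

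The stretch upstream of the transcription start is shown for the 4 enzymes that have an entry in the RefSeq promoter table, and for Srebf2. Insig1 also has an entry and is not shown. Its stretch of the same length held neither of the 2 cores marked below. The sequences are from RefSeq on GRCm38.p6, each 170 bases long, read 5′ to 3′ on the strand of the gene and ending at the base before the annotated start. Capitals mark ATCAC, a core shared by many sterol regulatory elements, and CCAAT, the core bound by NF-Y, each on either strand (GTGAT and ATTGG are the same letters on the other strand).
Idi1: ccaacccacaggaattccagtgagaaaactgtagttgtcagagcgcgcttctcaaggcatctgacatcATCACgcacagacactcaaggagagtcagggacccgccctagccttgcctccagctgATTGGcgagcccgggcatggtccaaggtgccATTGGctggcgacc
Lss: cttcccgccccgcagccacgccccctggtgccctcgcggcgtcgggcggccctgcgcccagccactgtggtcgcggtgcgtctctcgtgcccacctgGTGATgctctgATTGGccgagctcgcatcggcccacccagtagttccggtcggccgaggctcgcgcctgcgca
Cyp51: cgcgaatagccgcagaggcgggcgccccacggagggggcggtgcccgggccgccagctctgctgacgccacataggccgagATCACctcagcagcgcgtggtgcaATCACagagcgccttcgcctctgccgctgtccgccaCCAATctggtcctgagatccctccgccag
Sc4mol: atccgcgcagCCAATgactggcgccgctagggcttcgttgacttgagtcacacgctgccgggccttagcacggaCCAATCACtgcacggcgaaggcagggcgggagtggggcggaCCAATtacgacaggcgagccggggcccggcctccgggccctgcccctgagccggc
Srebf2: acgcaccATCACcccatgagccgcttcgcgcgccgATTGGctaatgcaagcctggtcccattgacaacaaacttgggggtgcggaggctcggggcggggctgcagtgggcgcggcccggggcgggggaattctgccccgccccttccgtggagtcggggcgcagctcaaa
The windows are chr13:8885436-8885605 on the plus strand for Idi1, chr10:76531435-76531604 on the plus strand for Lss, chr5:4104698-4104867 on the minus strand for Cyp51, chr8:64733579-64733748 on the minus strand for Sc4mol (Msmo1 in RefSeq) and chr15:82147099-82147268 on the plus strand for Srebf2. In Idi1, ATCAC began 102 bases upstream of the start and CCAAT 45 and 14 bases upstream, on the other strand. In Lss the 2 cores began 73 and 62 bases upstream, both on the other strand. Cyp51 held ATCAC 89 and 65 bases upstream and CCAAT 29 bases upstream. In Sc4mol, CCAAT and ATCAC overlapped in 1 run of letters (CCAATCAC) that began 96 bases upstream, with further CCAAT letters 160 and 55 bases upstream. Srebf2 held ATCAC 163 bases and CCAAT 135 bases upstream.

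Of the 8 genes, 6 had a RefSeq promoter entry: these 5 and Insig1. Over the 250 bases upstream on both strands, ATCAC was found in 5 of the 6, all but Insig1, and in 29.0% of the 32851 promoters of the table. CCAAT was found in 6 of 6 and in 33.8% of all promoters, and GGGCGG, the core of Sp1 sites, in 6 of 6 and in 32.7%. The longer form TCACNCCAC was found in 0 of 6 and in 1.05% of all promoters. Motifs were chosen after the sequences had been seen. A match is a match of letters, not a measured binding site.

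Among the libraries, RAAS-blocked replicate 4 stood apart. It had 16919 symbols above 0, against 17993 to 18613 in the other 15, and its low values did not fall on the steps of whole reads that the others shared (5.13% of ratios on a step, against 64.0% to 76.7% in the others compared with untreated replicate 0). Log2 differences printed below that moved by more than 1.5 times without it, and member pairs whose call changed, are given both ways. Other r values are not all given both ways. The other 15 libraries lay at up to 1.69 times the depth of untreated replicate 0, and absolute depth is unknown because the table holds no counts. No library pair was identical (r from 0.89 to 0.98 over tested genes). Podocyte markers were abundant in every library: the mean log2(FPKM + 1) of the 15 tested podocyte markers of 16 was 6.34 to 7.59 in untreated and 6.17 to 7.46 in RAAS-blocked libraries, with Podxl listed at 0 throughout. Proximal tubule markers (18 of 18 tested, none at 0) ranged more widely, from 2.04 to 5.78 and from 1.75 to 5.18. The ribosomal RNA symbol Rn18s was listed at 2214 to 9925 FPKM in RAAS-blocked libraries and at 0 in each of the 9 untreated ones.

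Levels are FPKM, fragments scaled to transcript length and to the mapped fragments of the library, which allows genes to be set beside each other. Over all 16 libraries the mean level was highest for Srebf2 (21.4 ± 3.79 FPKM, SD), then Sc4mol (18.8 ± 3.90), Fdft1 (17.7 ± 1.79), Insig1 (14.04 ± 3.12), Idi1 (10.97 ± 2.55), Sqle (7.08 ± 2.06), Lss (5.67 ± 0.930) and Cyp51 (4.56 ± 1.16). The ranges of every 2 neighbours in this order overlapped. The 3 lowest, Sqle, Lss and Cyp51, encode consecutive steps from squalene to the first demethylation of lanosterol. The genes also differed in how much they varied between libraries. The coefficient of variation of Fdft1 was 10.1%, at the 14.5th percentile of tested genes, and that of Sqle 29.1%, at the 71.2nd, where the median tested gene had 18.8%.

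No member differed between RAAS-blocked and untreated glomeruli past the threshold. With limma on log2(FPKM + 1) and Benjamini-Hochberg adjustment over all 13286 genes, 0 of the 8 had an adjusted p under 0.05, where 2 genes in all (0.0151%) did, Rn18s and Mgat1. At an unadjusted p under 0.05 there were 814 genes (6.13%) and 1 member, Idi1. The exact Wilcoxon test called 0 genes, with 757 at an unadjusted p under 0.05 and no member among them. Its lowest p was 8.7e-05, set by the 11440 possible assignments of libraries. A gene at that p cannot pass the adjustment over 13286 genes alone, so the 0 calls say little. Means were higher in RAAS-blocked glomeruli for 5 of the 6 enzymes and lower for Fdft1 and both regulators. The median log2 difference was 0.20 over the 6 enzymes, 0.12 over the 8 members and -0.02 over all tested genes, of which 44.7% had the higher mean in RAAS-blocked libraries. Cell type markers also differed in mean between the groups. In these counts and those of the lists below, means are of log2(FPKM + 1). Higher in RAAS-blocked libraries were 11 of 12 mesangial and smooth muscle markers (median log2 difference 0.42) and 10 of 10 macrophage markers (0.45). Lower were 9 of 12 glomerular endothelium markers (-0.20) and 12 of 15 podocyte markers (-0.16). So were 15 of 18 proximal tubule markers (-0.11) and 7 of 12 distal nephron markers (-0.20). The mean FPKM of some macrophage markers, Cd68 and C1qa among them, went the other way. The median library level of proximal tubule markers also did, at 3.05 in untreated and 3.84 in RAAS-blocked libraries. None of these markers passed limma's adjusted threshold, and their part in the members' differences was tested only for the proximal tubule and endothelial levels.

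**Figure D1:**
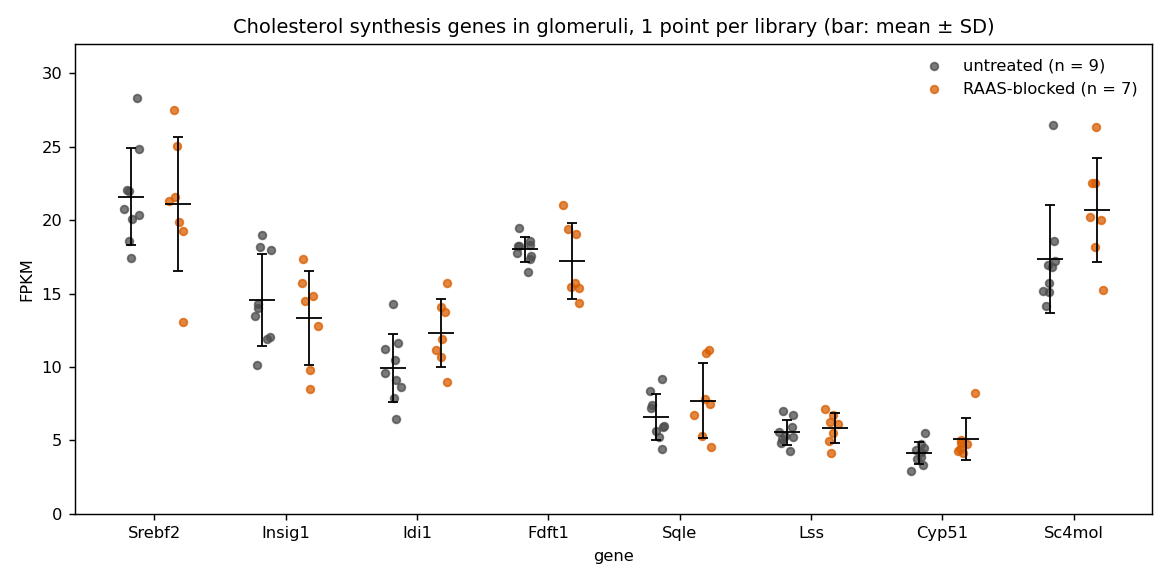
FPKM of the 8 genes in each library (grey: untreated, n = 9; orange: RAAS-blocked, n = 7); horizontal bars are group means and whiskers ± 1 SD. The groups overlap for every gene, and the single RAAS-blocked point at 8.21 for Cyp51 and the untreated point at 26.5 for Sc4mol lie away from the rest of their groups.

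Of the regulators, Srebf2 ranged from 17.4 to 28.3 FPKM in untreated libraries (median 20.7) and from 13.1 to 27.5 in RAAS-blocked ones (median 21.3). The groups covered the same range except for RAAS-blocked replicate 4, which was the lowest of all 16. The means were 21.6 ± 3.31 (SD, n = 9) and 21.1 ± 4.59 FPKM (SD, n = 7), and the log2 difference, RAAS-blocked minus untreated, was -0.05 ± 0.13 (SE; limma adjusted p = 0.961). Without RAAS-blocked replicate 4 it was 0.06 (adjusted p = 0.972) and without untreated replicate 6, the highest library, it was 8.5e-05, so the sign turned with either of these libraries left out.

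Insig1, whose product holds back the SREBP precursors, ranged from 10.1 to 19.0 FPKM (median 14.015) in untreated and from 8.53 to 17.3 (median 14.5) in RAAS-blocked libraries. The groups overlapped, with RAAS-blocked replicates 1 and 5 (8.5 and 9.8 FPKM) below every untreated library. The means were 14.6 ± 3.14 and 13.4 ± 3.20 FPKM, and the log2 difference was -0.12 ± 0.15 (adjusted p = 0.934). It ran from -0.19 without RAAS-blocked replicate 3 to -0.03 without RAAS-blocked replicate 1.

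Idi1 encodes isopentenyl-diphosphate isomerase, which makes the primer for chain building. It ranged from 6.44 to 14.3 FPKM (median 9.58) in untreated and from 8.96 to 15.7 (median 11.9) in RAAS-blocked libraries. Only 1 RAAS-blocked library lay above all untreated ones, and untreated replicate 0 lay below all others. The means were 9.93 ± 2.32 and 12.3 ± 2.31 FPKM. The log2 difference of 0.30 ± 0.14 was the greatest of the 8 (p = 0.0471 before and 0.810 after limma's adjustment), and the exact Wilcoxon p was 0.0907.

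Fdft1 encodes squalene synthase, which joins farnesyl units and commits them to sterols. Its untreated libraries lay close together, from 16.5 to 19.5 FPKM (median 18.2), and its RAAS-blocked ones from 14.3 to 21.0 (median 15.7). Of the 7 RAAS-blocked libraries, 4 lay below every untreated one and 1, replicate 4, above every one. The means were 18 ± 0.839 FPKM (SD, n = 9) and 17.2 ± 2.57 FPKM (SD, n = 7), and the difference in spread was not tested. The log2 difference of the means was -0.07 ± 0.07 (limma adjusted p = 0.922), and -0.12 without RAAS-blocked replicate 4 (adjusted p = 0.743).

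Sqle encodes squalene epoxidase, a slow step of the pathway. It ranged from 4.40 to 9.18 FPKM (median 5.96) in untreated and from 4.56 to 11.2 (median 7.48) in RAAS-blocked libraries, and RAAS-blocked replicates 3 and 5 (10.9 and 11.2 FPKM) lay above every untreated one. The means were 6.59 ± 1.56 and 7.71 ± 2.56 FPKM. The log2 difference was 0.17 ± 0.17 (limma adjusted p = 0.922), and 0.27 (adjusted p = 0.792) without RAAS-blocked replicate 4, a library at the low end. Without RAAS-blocked replicate 5, the highest, it was 0.081.

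Lss, lanosterol synthase, closes the ring system. It ranged from 4.27 to 6.99 FPKM (median 5.28) and from 4.15 to 7.16 (median 6.13), and the RAAS-blocked group held both the lowest and the highest library. The means were 5.54 ± 0.873 and 5.84 ± 1.04 FPKM. Its log2 difference was 0.06 ± 0.11 (limma adjusted p = 0.952), and ran from 0.017 without RAAS-blocked replicate 4 to 0.13 without RAAS-blocked replicate 0.

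The last 2 enzymes remove methyl groups from lanosterol, Cyp51 at carbon 14 and Sc4mol at carbon 4. Cyp51 ranged from 2.95 to 5.49 FPKM (median 4.24) in untreated and from 4.14 to 8.21 (median 4.74) in RAAS-blocked libraries. A single library, RAAS-blocked replicate 3, was above all untreated ones, and the next highest of its group was at 5.06 FPKM. The means were 4.13 ± 0.768 and 5.10 ± 1.41 FPKM, and the log2 difference was 0.24 ± 0.12 (limma adjusted p = 0.828), and 0.13 without RAAS-blocked replicate 3. Sc4mol ranged from 14.2 to 26.5 FPKM (median 16.8) and from 15.2 to 26.3 (median 20.2). Untreated replicate 6 was the highest of all 16, 5 of the other untreated libraries lay between 15.1 and 17.0 FPKM. The means were 17.4 ± 3.67 and 20.7 ± 3.55 FPKM, and the log2 difference was 0.25 ± 0.12 (limma adjusted p = 0.817).

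The variation between libraries was shared by most of the enzymes. Of the 28 pairs of members, 25 had a positive Pearson r of log2(FPKM + 1) over the 16 libraries and 10 (35.7%) passed an adjusted p of 0.05 (two-sided permutation test, 100000 resamples, Benjamini-Hochberg over the 28 pairs). The weakest of these 10 had r = 0.59, a value that 6.08% of all pairs of tested genes reached. This share was computed for the 16 libraries as they stand, and not for the alternatives given below. Of the 10 pairs, 9 joined 2 of the enzymes Idi1, Sqle, Lss, Cyp51 and Sc4mol, and the other was Srebf2 with Sqle. The mean r was 0.39 over the 28 pairs (0.61 within untreated and 0.34 within RAAS-blocked libraries), 0.54 over the 15 pairs of the 6 enzymes, and 0.003 over all pairs of tested genes. Among these 5 enzymes, which were singled out by the r values themselves, it was 0.73 over 10 pairs (0.49 to 0.86).

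**Figure D2:**
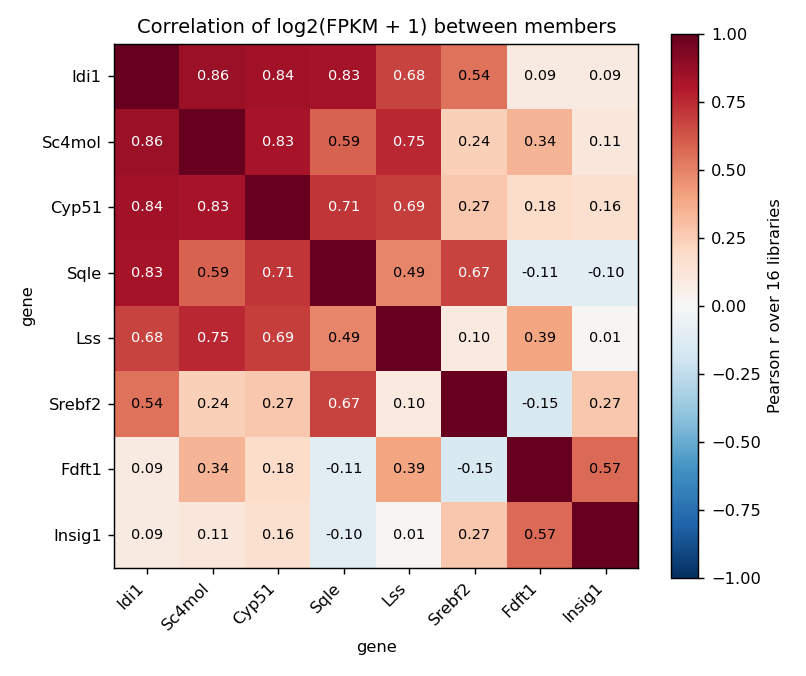
Pearson r of log2(FPKM + 1) for each pair of the 8 genes over 16 libraries (red: positive; blue: negative; the diagonal is each gene with itself). The block of Idi1, Sc4mol, Cyp51, Sqle and Lss at the upper left holds r from 0.49 to 0.86, and Fdft1 and Insig1 share r = 0.57 with each other.

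The closest pair was Idi1 and Sc4mol, with r = 0.86 (permutation p = 1.0e-05, the smallest the resamples can give; adjusted p = 0.00028) and Spearman rho = 0.87 (permutation p = 1.0e-05, adjusted p = 0.00028). Leaving out untreated replicate 0 and RAAS-blocked replicate 3, the 2 libraries farthest from the median of Idi1, gave r = 0.81, and it was 0.83 within the untreated and 0.81 within the RAAS-blocked group. Idi1 also followed Cyp51 (r = 0.84, adjusted p = 0.00042; rho = 0.84, adjusted p = 0.00091) and Sqle (r = 0.83, adjusted p = 0.00042; rho = 0.86, adjusted p = 0.00042), and Cyp51 followed Sc4mol (r = 0.83, adjusted p = 0.00028; rho = 0.85, adjusted p = 0.00091). Without the 2 farthest libraries these 3 were at 0.78, 0.74 and 0.78. Lss followed Sc4mol (r = 0.75, rho = 0.76), Cyp51 (r = 0.69, rho = 0.81) and Idi1 (r = 0.68, rho = 0.64), at adjusted p of 0.0043, 0.0070 and 0.013 for r and 0.0042, 0.0015 and 0.027 for rho in permutation tests. Of these, the pair of Idi1 and Lss passed no longer without untreated replicate 0 (r = 0.59, adjusted p = 0.067). Sqle followed Cyp51 (r = 0.71, adjusted p = 0.0055; rho = 0.63, adjusted p = 0.027, permutation tests) and, at the edge of the threshold, Sc4mol (r = 0.59, adjusted p = 0.045; rho = 0.67, adjusted p = 0.022). This last pair kept its call without untreated replicate 1 or 4 or RAAS-blocked replicate 4 or 5 and lost it without any of the other 12 libraries (r from 0.48 to 0.59 in these, adjusted p from 0.053 to 0.167), and its r was 0.77 without RAAS-blocked replicate 4. The pair of Sqle and Lss had r = 0.49 (adjusted p = 0.115; rho = 0.48, adjusted p = 0.120, permutation tests) and passed without RAAS-blocked replicate 4 (r = 0.75, adjusted p = 0.0043).

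The libraries at the ends were the same for several enzymes. Untreated replicate 0 was the lowest of all 16 for Idi1 (6.44 FPKM), Sqle (4.40), Cyp51 (2.95) and Sc4mol (14.2), and RAAS-blocked replicate 3 was the highest for Idi1 (15.7) and Cyp51 (8.21). As a mean of standardized levels over the 6 enzymes, in SD units, the libraries ran from -1.32 in untreated replicate 0 to 1.13 in untreated replicate 6 and, among RAAS-blocked ones, from -0.999 in replicate 0 to 1.67 in replicate 3. Both groups thus held low and high libraries. The shared variation was present within each group: the mean r among all 6 enzymes was 0.66 in untreated and 0.55 in RAAS-blocked libraries. Among the 5 enzymes, singled out by r over these same libraries, it was 0.81 in untreated and 0.65 in RAAS-blocked libraries, and 0.83 in the latter without replicate 4. With each gene centred on its group means the number of pairs past the threshold was again 10: Srebf2 with Idi1 passed (r = 0.68, adjusted p = 0.011) and Sqle with Sc4mol did not (r = 0.56, adjusted p = 0.059).

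**Figure D3:**
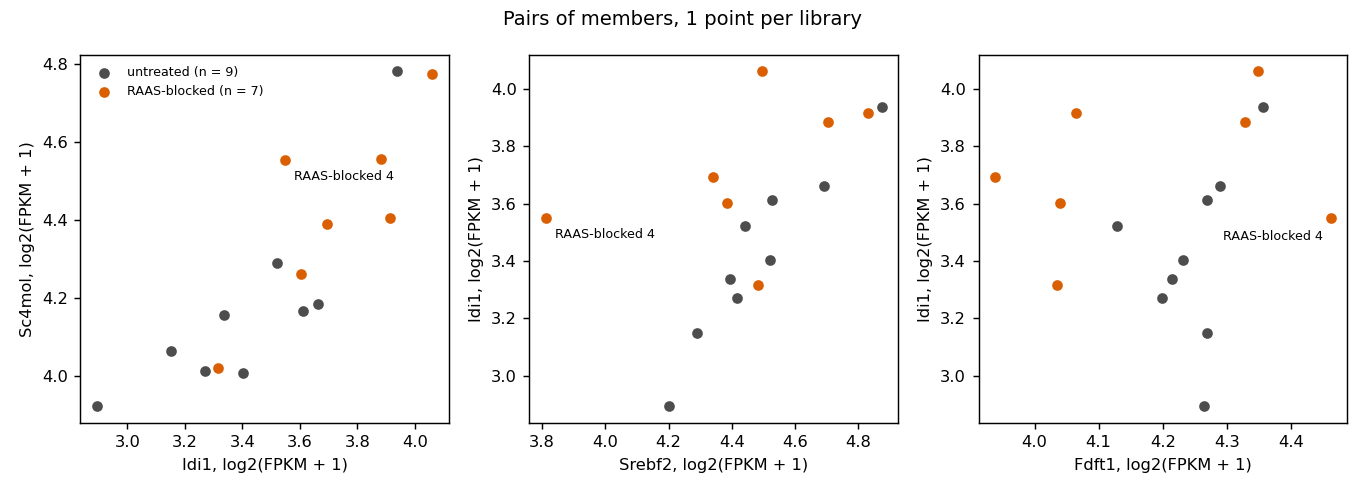
Log2(FPKM + 1) of 3 pairs of genes, 1 point per library (grey: untreated; orange: RAAS-blocked), with RAAS-blocked replicate 4 named. Sc4mol climbs with Idi1 across both groups (r = 0.86); Idi1 climbs with Srebf2 apart from RAAS-blocked replicate 4 (r = 0.74 without it); Idi1 and Fdft1 show little relation (r = 0.09).

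Over the 16 libraries Fdft1 stood outside this block. Its mean r with the other 5 enzymes was 0.18 (-0.11 to 0.39), and 0.17 without RAAS-blocked replicate 4. Within each group it was 0.36, and 0.53 (0.34 to 0.75) in RAAS-blocked libraries without replicate 4 (n = 6). No pair of Fdft1 with an enzyme passed the threshold. Its highest r among the members was with Insig1 (r = 0.57, adjusted p = 0.056; rho = 0.50, adjusted p = 0.106, permutation tests), which was 0.26 without RAAS-blocked replicates 1 and 5, the 2 farthest from the median of Insig1, and which passed without RAAS-blocked replicate 4 (r = 0.69, adjusted p = 0.012), replicate 0 (r = 0.64, adjusted p = 0.027) or replicate 2 (r = 0.62, adjusted p = 0.036). Insig1 had a mean r of 0.14 with the 6 enzymes. No member pair with Insig1 passed the threshold over the 16 libraries.

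The r of Srebf2 with the enzymes moved when 1 library was left out, and it also differed in size between untreated and RAAS-blocked libraries. Over 16 libraries Srebf2 passed with Sqle (r = 0.67, adjusted p = 0.013; rho = 0.67, adjusted p = 0.022; r = 0.62 without untreated replicate 6 and RAAS-blocked replicate 4, the farthest from the median of Srebf2) and not with Idi1 (r = 0.54, adjusted p = 0.068; rho = 0.64, adjusted p = 0.027, permutation tests). Nor did it pass with Sc4mol over 16 libraries (r = 0.24, adjusted p = 0.587, permutation test). The mean r of Srebf2 with the 6 enzymes was 0.28, and 0.54 without RAAS-blocked replicate 4. Without that library the pairs of Srebf2 with Idi1 (r = 0.74, adjusted p = 0.0043) and Sc4mol (r = 0.59, adjusted p = 0.040) passed, and 14 of 28 pairs did in all. In that library Srebf2 was the lowest of all and Sqle was low (4.56 FPKM), while Fdft1 (21.0 FPKM) and Lss (7.16 FPKM) were the highest of all. Within the untreated group the mean r of Srebf2 with the 6 enzymes was 0.77 (0.52 with Fdft1 to 0.95 with Idi1, n = 9). Within the RAAS-blocked group it was 0.07 (n = 7), and 0.29 without replicate 4 (n = 6). The difference between the groups was not tested.

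The rest of the pathway was read from lists. Upstream of the members and at the isoprenoid branch, 7 of 8 listed genes were tested, and none passed limma's adjusted threshold. The mean of log2(FPKM + 1) was higher in RAAS-blocked glomeruli for 5 and lower for 2 (median log2 difference 0.03). Hmgcs1, which encodes the synthase that makes HMG-CoA, was listed at 0 in all 16 libraries, which can be a failed estimate. Fdps, farnesyl diphosphate synthase, was at 22.1 ± 4.41 and 24.8 ± 5.91 FPKM (log2 difference 0.15 ± 0.15, adjusted p = 0.922; 0.073 without RAAS-blocked replicate 3 and 0.23 without RAAS-blocked replicate 0). Ggps1, which leads away from sterols to geranylgeranyl diphosphate, was at 15.6 ± 1.92 and 16.3 ± 1.58 FPKM (0.07 ± 0.08, adjusted p = 0.932).

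Of the enzymes after lanosterol other than Cyp51 and Sc4mol, 9 were tested, 4 higher and 5 lower in mean (median -0.07), and none passed. Dhcr7, which carries out a last reduction to cholesterol, was at 10.3 ± 2.46 and 8.95 ± 1.28 FPKM (log2 difference -0.17 ± 0.13, limma adjusted p = 0.894). Sc5d, the sterol desaturase before it, was at 14.1 ± 1.67 and 13.4 ± 1.20 FPKM (-0.07 ± 0.07). The product of 0610007P14Rik, Erg28 in RefSeq, is known as a scaffold of carbon 4 demethylation, and its level was 15.9 ± 2.14 and 16.9 ± 2.05 FPKM (0.09 ± 0.10; 0.029 without untreated replicate 0 and 0.15 without RAAS-blocked replicate 0).

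Genes that process or degrade the SREBP machinery (10 tested, 2 higher, 8 lower, median -0.06), other known SREBP2 targets (10 tested, 2 higher, 8 lower, median -0.08) and genes of sterol efflux, storage and sensing (15 tested, 6 higher, 9 lower, median -0.03) also held no gene past the adjusted threshold. In the first, Srebf1, the sister factor of Srebf2 that serves fatty acid synthesis, was at 17.9 ± 2.41 and 15.9 ± 2.25 FPKM (log2 difference -0.16 ± 0.10, limma adjusted p = 0.848), and the difference was -0.098 without RAAS-blocked replicate 4. March6, a ubiquitin ligase of the endoplasmic reticulum, was at 33.9 ± 3.02 and 31.8 ± 3.21 FPKM (-0.09 ± 0.07; -0.14 without RAAS-blocked replicate 4 and -0.058 without untreated replicate 1). Among other targets, Acly, which supplies acetyl-CoA, was at 47.6 ± 2.84 and 44.8 ± 3.14 FPKM (-0.08 ± 0.05). Fads2, a fatty acid desaturase, was at 5.94 ± 2.85 and 4.49 ± 2.27 FPKM (-0.37 ± 0.28), and the difference was -0.17 without RAAS-blocked replicate 4, where it was lowest at 1.16 FPKM. Me1, malic enzyme, was at 9.62 ± 3.36 and 8.13 ± 0.732 FPKM (-0.16 ± 0.16), and the difference ran from -0.25 without untreated replicate 3 to -0.062 without untreated replicate 4.

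Mylip, a sterol-induced ubiquitin ligase that lowers lipoprotein uptake, was the only gene of these 5 lists with an unadjusted p under 0.05. Its means were 46.0 ± 8.77 FPKM in untreated and 34.7 ± 11.4 in RAAS-blocked libraries. The log2 difference was -0.43 ± 0.16 (limma adjusted p = 0.716). RAAS-blocked replicate 4 was at 59.2 FPKM, far above the next of its group at 34.8, and without it the difference was -0.56 (adjusted p = 0.253). Nceh1, a cholesteryl ester hydrolase, was at 15.7 ± 1.88 and 13.9 ± 1.17 FPKM (-0.16 ± 0.07, adjusted p = 0.817), and Osbpl2, an oxysterol-binding protein, at 21.5 ± 1.74 and 20.0 ± 1.36 FPKM (-0.10 ± 0.06).

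The covariation of the enzymes extended to other genes of the pathway. Each of 13278 tested genes other than the members was ranked by its r with the mean standardized level of the 6 enzymes over the 16 libraries. Fdps was at rank 2 (r = 0.85), Hsd17b7 at rank 6 (0.82), 0610007P14Rik at rank 16 (0.78), Nsdhl at rank 22 (0.77) and Mvd at rank 85 (0.70). Hsd17b7 and Nsdhl encode the enzymes that act with Sc4mol in removing the methyl groups at carbon 4, and Mvd the decarboxylase that makes the substrate of Idi1. Of the 7 tested upstream genes 6 had a positive r (median 0.58), and of the 9 late genes 8 did (median 0.47), where 48.7% of all genes did (median -0.02) and 8.77% had an r above 0.5. These r values are descriptions, since all rest on the same 16 libraries.

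**Figure D4:**
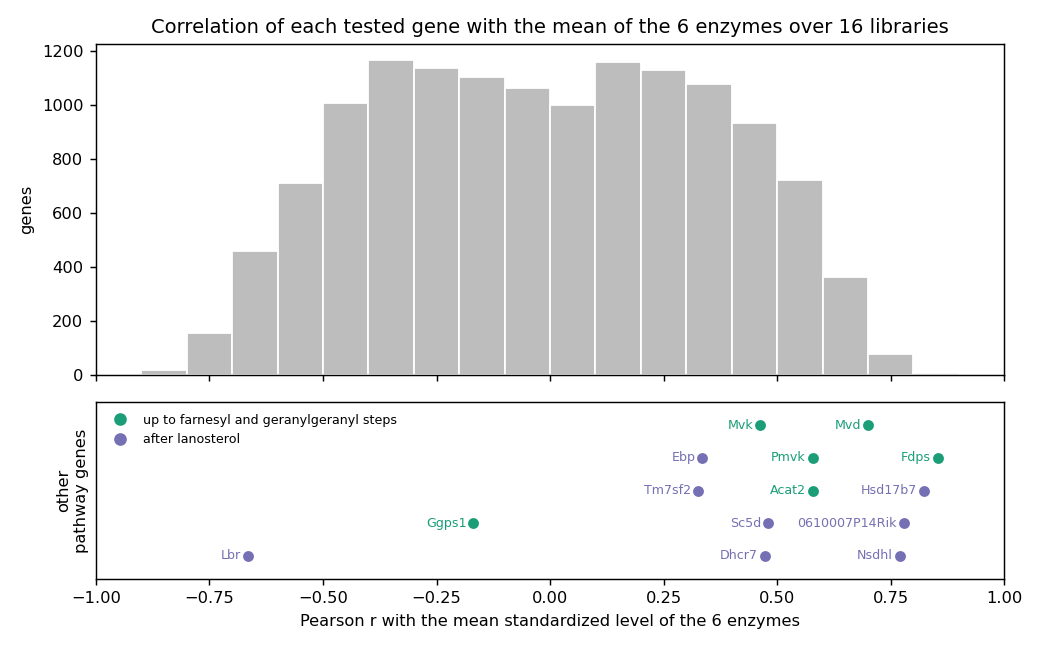
Upper panel: number of tested genes by Pearson r with the mean standardized level of the 6 enzymes over 16 libraries. Lower panel: the same r for other pathway genes (green: up to the farnesyl and geranylgeranyl steps; purple: after lanosterol; height has no meaning); Fdps at 0.85 and Hsd17b7 at 0.82 lie at the right edge of the distribution, Ggps1 at -0.17 and Lbr at -0.66 to the left.

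The remaining early genes Pmvk and Acat2 had r = 0.58 each and Mvk 0.46, and of the late genes Sc5d had 0.48, Dhcr7 0.47, Ebp 0.34 and Tm7sf2 0.33. Without RAAS-blocked replicate 4, Ebp was at 0.57 and Tm7sf2 at 0.56. Exceptions were Ggps1 (r = -0.17, rank 8304) and Lbr (r = -0.66, rank 12966). Lbr and Tm7sf2 both encode a sterol reductase that acts on carbon 14, and the product of Lbr is also the lamin B receptor of the inner nuclear membrane. Known targets of SREBP2 outside the pathway (10 tested) had a median r of 0.28, 7 of them positive, from -0.36 for Acly to 0.53 for Tmem97. Genes of SREBP processing had a median r of 0.04, and the 15 genes of efflux and storage one of -0.01, 7 of them positive, from -0.50 for Scarb1 to 0.42 for Osbp.

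The gene most like the enzyme mean was none of the pathway: Krt10, a keratin, had r = 0.91 at a mean level of 1.73 FPKM (1.22 to 2.30). Besides Fdps and Hsd17b7, the genes nearest to it included Mtx2 and Dnajc11 (both of mitochondrial membranes; r = 0.84 each), Tmx2 (0.83), Wasf3 (0.82), Adck1 and Ubfd1 (0.79 each). Those most like Srebf2 included Tomm6 (r = 0.89), Ccdc85c (0.89), Zfp612 (0.87) and Slc25a38 (0.85), and their r lay between 0.72 and 0.79 without RAAS-blocked replicate 4. Those most like Insig1 were Scfd2 (0.81), Pldn (0.80), Star (0.79), Aimp1 (0.77) and Ccdc94 (0.77). Star, which encodes the carrier of cholesterol into mitochondria, was at 2.32 FPKM on average.

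Bulk glomerular RNA mixes cell types, and fewer cells of a type cannot be told apart from less RNA per cell. Of 16 relations of the 8 genes to the proximal tubule and podocyte marker levels, 0 passed an adjusted p of 0.05 in permutation tests, with 2 at an unadjusted p under 0.05, Srebf2 and Insig1 with the podocyte level. The highest were Insig1 with the podocyte level (r = 0.52, adjusted p = 0.287; rho = 0.46, adjusted p = 0.563), Srebf2 with the same (r = 0.51, adjusted p = 0.287; rho = 0.42, adjusted p = 0.563) and Sqle with the proximal tubule level (r = 0.49, adjusted p = 0.287; rho = 0.45, adjusted p = 0.563). Without the 2 libraries farthest from the median marker level these r were 0.37, 0.21 and 0.44. The mean pairwise r of the 6 enzymes was 0.54, and 0.58 after the proximal tubule level was taken out of each gene.

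A closer relation was seen with endothelial markers. The mean log2(FPKM + 1) of the 12 glomerular endothelium markers (all tested, none at 0; 7.13 to 8.22 in untreated and 7.06 to 7.84 in RAAS-blocked libraries) had r = -0.70 and rho = -0.73 with the enzyme mean over 16 libraries, -0.87 within the untreated and -0.38 within the RAAS-blocked group, and -0.63 without the 2 farthest libraries. The 12 distal nephron markers had r = 0.52 (0.71 and 0.47 within the untreated and RAAS-blocked groups), podocyte markers 0.30 (0.78 within the untreated and -0.06 within the RAAS-blocked group), macrophage markers -0.30 (-0.60 and -0.09) and mesangial and smooth muscle markers -0.33 (-0.61 and -0.48). Relative depth had r = 0.27 over 15 libraries. After the endothelial level was taken out of each gene, 5 of 28 pairs passed in place of 10, and the mean pairwise r of the 6 enzymes was 0.42. The 5 were Idi1 with Cyp51 (r = 0.76), Sc4mol (0.75) and Sqle (0.69), Cyp51 with Sc4mol (0.73) and Lss with Sc4mol (0.64). The share of all pairs of tested genes at a like r was not computed in this setting. The pair of Srebf2 with Sqle was at 0.45 (permutation adjusted p = 0.220) and that of Srebf2 with Idi1 at 0.098 (adjusted p = 0.858). With this level as a covariate the log2 difference between the groups was 0.18 for Idi1, 0.17 for Cyp51, 0.17 for Sc4mol, 0.056 for Sqle, 0.0079 for Lss, -0.09 for Fdft1, -0.14 for Srebf2 and -0.16 for Insig1, and again no member passed. Both alternatives were chosen after seeing the data.

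**Figure D5:**
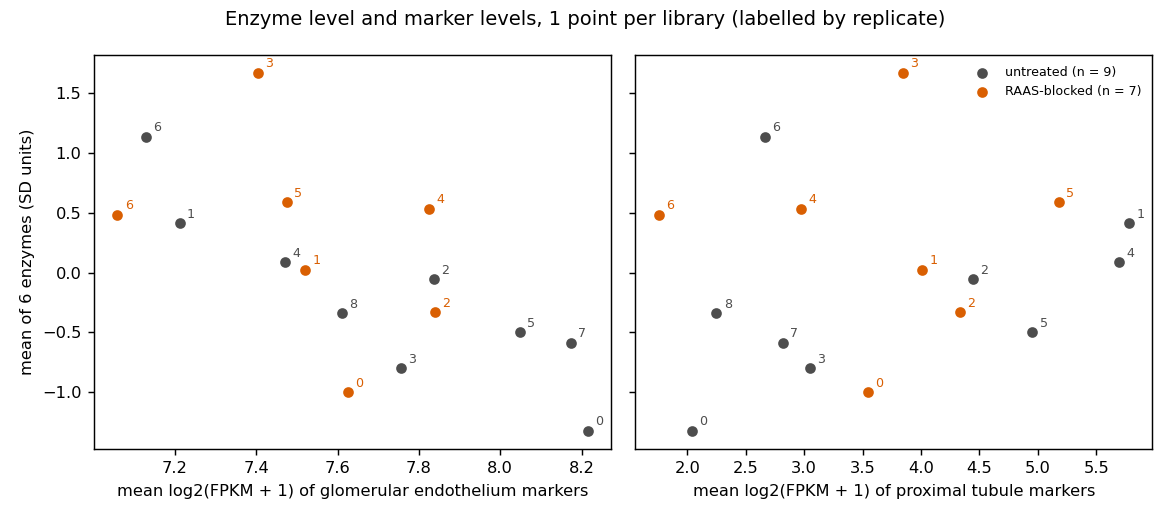
Mean standardized level of the 6 enzymes in SD units against the mean log2(FPKM + 1) of glomerular endothelium markers (left) and proximal tubule markers (right), 1 point per library with its replicate number (grey: untreated; orange: RAAS-blocked). Points fall from upper left to lower right against the endothelial level (r = -0.70) and scatter against the tubule level (r = 0.17).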

How the data were processed

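RNA of isolated glomeruli (TruSeq mRNA kit, RNA quality of at least 8, per the labels' protocols) was read in 9 untreated and 7 RAAS-blocked libraries. The authors deposited 1 table of FPKM, with a column for each library. TopHat2 2.0.8, Cuffdiff 2.2.1, Cufflinks, CASAVA 1.8.2 and FastQC are named in the submitters' processing notes without their roles. Build, annotation and strand use were not given in the sources used here, and reads shared by overlapping genes cannot be separated. Untreated replicate 7 and RAAS-blocked replicate 5 held Mir27a at 672307 and 743781 FPKM, and without it their values summed to 432284 and 428293, within the 408454 to 492575 of the other 14 libraries.

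Values were tested as log2(FPKM + 1), which understates changes of low genes, with limma 3.58.1 in R 4.3.3 (trend and robust settings, group as the only term) over the 13286 genes that reached 1 FPKM in 7 or more libraries. Correlations used Python 3.11.15 with NumPy 2.4.6 and pandas 2.3.3, with 100000 resamples. Promoters were matched by symbol or synonym to RefSeq tables. The functions were tested on simulated data. Genes named were all members, the 3 lowest p of each of 5 pathway lists, the 10 genes most like the enzyme mean and the 5 most like Srebf2 and Insig1, leaving out predicted symbols; cell type marker lists are given by level, not by gene, a narrowing made after seeing the data. Tmem97, Osbp, Scarb1, Mgat1, Rn18s and Mir27a were named after their values were seen. Members and lists were chosen with earlier results of these data known. Some genes taken by these rules are not reported here. Alternatives were pseudocounts of 0.1 and 0.01, no filter or one at 5 FPKM, upper-quartile scaling, quantile normalization, weights per library, a fit with no variance trend, a replicate block, marker covariates, the exact Wilcoxon test and each library left out in turn.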

Additional observations from a re-analysis of the deposited data

Results flagged for a closer look

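Dixon's criterion was applied to each group for 38 genes named above, in 76 groups, and 6 (7.89%) had a library past its critical value, where chance gives about 1 in 20. Cyp51 was highest in RAAS-blocked replicate 3 at 8.21 FPKM, with the next library at 5.06. Sc4mol was highest in untreated replicate 6 at 26.5 FPKM, with the next at 18.6. 0610007P14Rik was lowest in untreated replicate 0 at 10.7 FPKM, with the next at 15.4. March6 was highest in untreated replicate 1 at 40.5 FPKM (next 35.4) and in RAAS-blocked replicate 4 at 38.6 FPKM (next 32.2). Mylip was highest in RAAS-blocked replicate 4 at 59.2 FPKM, with the next at 34.8.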

How the results depend on the processing

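No member passed the adjusted threshold under any of the 29 alternatives, with adjusted p of 0.291 or more, and 226 of 231 recomputed member differences kept their sign. The exceptions were Srebf2 with array weights (0.057), Srebf2 (0.040) and Insig1 (0.043) by the difference of medians beside the Wilcoxon test, and Srebf2 on leaving out 1 library (-0.11 to 0.055). The number of genes called, 2, was 1 with upper-quartile scaling, quantile normalization, no trend, or the proximal tubule covariate, 3 with no filter, 0 by the Wilcoxon test, 9 with the endothelial covariate and 11 with array weights, and 1 to 6 on leaving out 1 library (6 without RAAS-blocked replicate 4, 4 without untreated replicate 8). Upper-quartile scaling moved the split of genes at an unadjusted p under 0.05 from 360 higher and 454 lower to 490 and 293. Pairs past the threshold numbered 8 to 14 on leaving out 1 library and 5 with the endothelial level taken out. That setting turned the sign of Srebf2 with Lss (-0.34), Cyp51 (-0.15) and Sc4mol (-0.30), of Insig1 with Idi1 (-0.057) and Lss (-0.082), and of Idi1 with Fdft1 (-0.020). Taking out the proximal tubule level turned Sqle with Insig1 (0.015) and with Fdft1 (0.027). On leaving out 1 library, r ran from -0.031 to 0.55 for Srebf2 with Lss, -0.30 to 0.26 for Srebf2 with Fdft1, -0.037 to 0.24 for Insig1 with Idi1, -0.12 to 0.11 with Lss, -0.068 to 0.24 with Cyp51, -0.090 to 0.22 with Sc4mol, -0.26 to 0.098 with Sqle, and for Fdft1 -0.020 to 0.20 with Idi1, -0.26 to 0.077 with Sqle and -0.0082 to 0.26 with Cyp51. The podocyte level ran from -0.039 to 0.20 with Sqle and -0.024 to 0.33 with Cyp51, and the proximal tubule level from -0.24 to 0.028 with Sc4mol. The genes most like the enzyme mean, Srebf2 or Insig1 kept the sign of their r throughout, and their ranks were not recomputed. On leaving out 1 library, 64 of 320 such r moved by more than their SD over these fits. Under other alternatives 32 of 100 did. Over all of these, r ran from 0.85 to 0.94 for Krt10 and from 0.79 to 0.92 for Fdps. It ran from 0.64 to 0.88 for Mtx2 and from 0.61 to 0.88 for Hsd17b7. The causes were not tested.

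Replicate numbers 0 to 6 occur in both groups, but the labels do not say that they pair mice, and deviations of same-numbered libraries correlated at -0.28 to 0.43 over 7 pairs, with the own number best in 1. With a replicate block on these 14 libraries 1 gene was called, as without the block in the same 14, and no member (Idi1 0.28, adjusted p = 0.856).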
